A study of Mus musculus with 6 samples.

Results

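NADPH is the electron donor that cells spend on reducing oxidised glutathione and thioredoxin and on building fatty acids and sterols. In the cytosol it is made chiefly by the oxidative branch of the pentose phosphate pathway, by malic enzyme and by isocitrate dehydrogenase, and in mitochondria by the counterparts of the last 2 and by nicotinamide nucleotide transhydrogenase. The non-oxidative branch of the pentose phosphate pathway makes no NADPH itself but returns its sugars to glycolysis, and NAD kinase makes the NADP+ from which NADPH is formed. Proximal tubule cells of the kidney, which carry a heavy oxidative load, rely on this supply, and ferroptosis, the iron-dependent death by lipid peroxidation that the study addressed, is held back by enzymes that draw on it.

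The genes described here were 9 enzymes of this supply, chosen by symbol: PGLS and PGD of the oxidative branch, RPIA, TKT and TALDO1 of the non-oxidative branch, the malic enzyme ME1, the isocitrate dehydrogenase IDH1, the transhydrogenase NNT and the NAD kinase NADK. All 9 were among the 39234 genes of the deposited count table, and all 9 were among the 18188 genes that passed the filter on low counts. The RNA came from HK2, a human proximal tubule epithelial cell line, in 3 control libraries and 3 libraries labelled USAG1_OE, in which USAG-1 (gene SOSTDC1), a secreted antagonist of BMP and Wnt signalling, was overexpressed. All 6 were labelled WT in genotype, with no hypoxia or other treatment named. The methods described overexpression as transient, from a plasmid, and the labels did not say whether control cells carried an empty plasmid. The organism field read mouse, whereas the gene identifiers, the cell line and the hg38 build in the submitters' processing notes were human.

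Library totals ran from 41236194 to 48699471 counts, and SOSTDC1 had 60 to 80 counts in the control libraries against 3907 to 5072 in the USAG1_OE libraries. Control replicate 3 stood apart: compared with either other control, its counts gave a chi-square of 47.2 and 47.7 per degree of freedom, against 6.87 to 8.90 for the remaining pairs of libraries of 1 group. The epithelial genes KRT8, KRT18, KRT19 and EPCAM were present, whereas the epithelial gene CDH1 had 0 to 9 counts a library. The proximal tubule marker LRP2 had 0 counts in all 6 libraries, and CUBN, AQP1 and SLC34A1 averaged under 1 CPM (counts scaled to library size). All 12 T and NK cell markers were lower in the USAG1_OE libraries, with a summed level of 80.1 to 98.4 CPM in control and 9.13 to 12.1 CPM in USAG1_OE libraries. No B cell (0 of 4 tested), red cell and platelet (0 of 5 tested) or general epithelial marker (0 of 4 tested) passed the test. Over all genes tested, 15.9% passed it at the threshold defined below, 8.95% higher and 6.91% lower. Red cell and platelet markers varied widely within groups, with summed levels of 8.19 to 110 CPM in control and 8.43 to 77.3 CPM in USAG1_OE libraries. The myeloid marker S100A8 ran from 1.93 to 23.0 CPM in control libraries, highest in replicate 3, and from 2.22 to 16.2 CPM in USAG1_OE libraries. Of 6 myeloid markers 1 (LYZ) was called lower. That call was lost in 8 of 17 alternative analyses, which are set out with the processing. Among them were those without control replicate 1 and without any 1 of the USAG1_OE libraries. Of 7 kidney tubule markers tested, not all of them confined to the proximal tubule, MME, PAX8 and GGT1 were called higher and CDH16 lower. MME kept its call in all 17 alternatives, whereas PAX8 lost it without control replicate 2 or any 1 of the USAG1_OE libraries. GGT1 lost its call without USAG1_OE replicate 1 or 3 and CDH16 without USAG1_OE replicate 2. Mitochondrially encoded transcripts took 4.80% to 5.59% of control counts and 1.50% to 1.55% of USAG1_OE counts. The part of these differences between libraries in the results below was not tested, and in bulk RNA fewer cells of a type and less RNA per cell cannot be told apart. The sample titles name HK2 cells alone, and the source of the T, NK, myeloid and red cell transcripts was not tested.

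Of the 9 enzymes, IDH1 and ME1 were higher in the USAG1_OE libraries, IDH1 by 1.37-fold and ME1 by 1.26-fold, and the other 7 did not pass the test. PGLS was lower in all 3 USAG1_OE libraries than in any control library but missed the threshold, and the remaining enzymes of the pentose phosphate pathway, NNT and NADK overlapped between the groups. Levels are given as CPM scaled by the trimmed mean of M-values (TMM), and adjusted p-values are those of edgeR's quasi-likelihood test, adjusted after Benjamini and Hochberg over all genes tested, with a call at under 0.05. Against 2 of 9 called higher, 8.95% of all genes tested were called higher and 6.91% lower (15.9% in either direction). Groups did not overlap for 3 of the 9 (IDH1 and ME1 above control, PGLS below), against 37.6% of all genes tested, 19.4% above and 18.1% below. The median log2 fold change was -0.03 over the 9 enzymes and -0.02 over all genes tested, with 3 of the 9 values above 0 and 6 below, and PGD, TALDO1 and NADK passed from below to above 0 without control replicate 3. Transcript lengths were not used here, so levels are compared between libraries and not between genes.

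**Figure D1:**
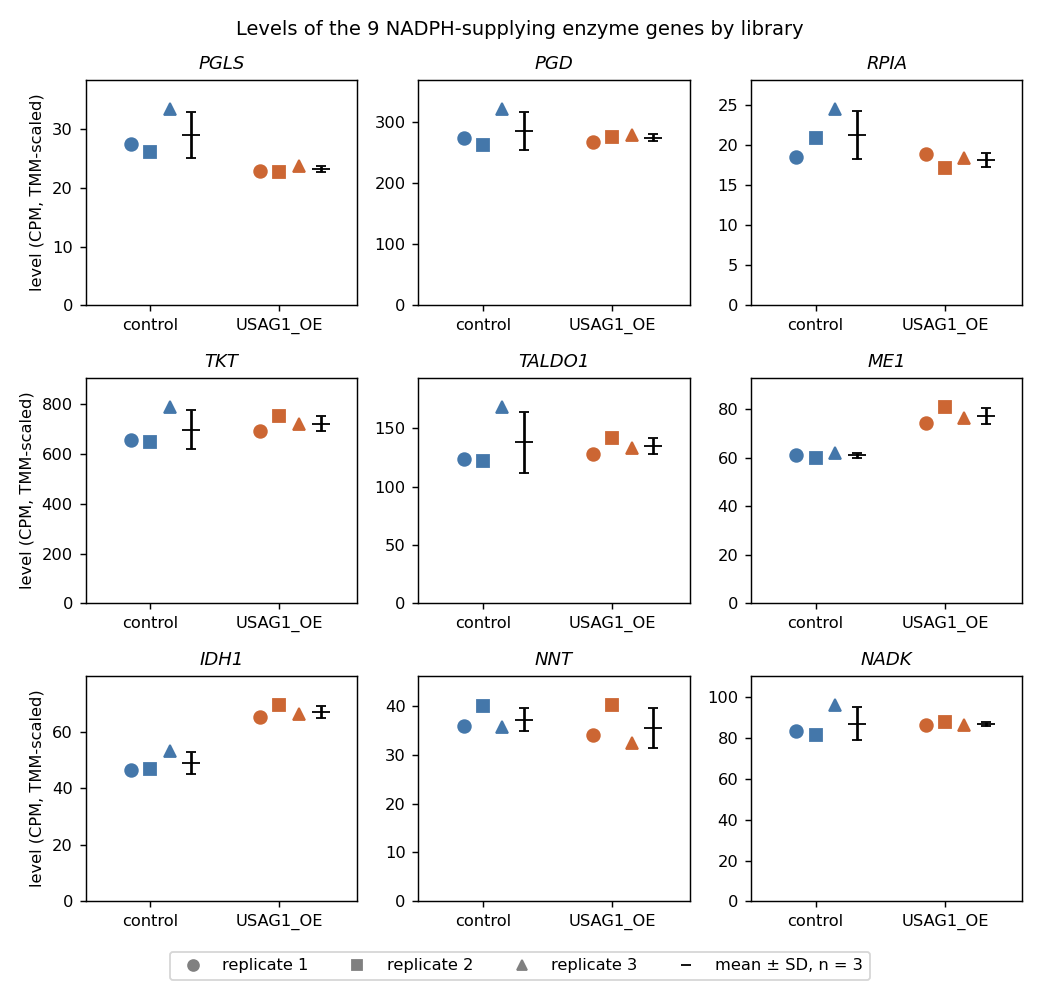
Level of each of the 9 enzymes in every library, in TMM-scaled CPM on axes that start at 0, with control libraries and USAG1_OE libraries as points shaped by replicate number and bars for the mean ± SD of each group (n = 3). IDH1 and ME1 lie higher in all 3 USAG1_OE libraries, PGLS lies lower in all 3, and control replicate 3 is the highest control library for 8 of the 9 enzymes.

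IDH1 (ENSG00000138413; chromosome 2, 208236229 to 208266074, minus strand, hg38) encodes the isocitrate dehydrogenase of cytosol and peroxisomes, which makes NADPH as it turns isocitrate into 2-oxoglutarate. Its level was 46.3, 46.8 and 53.3 CPM in control replicates 1, 2 and 3 and 65.2, 69.4 and 66.4 CPM in USAG1_OE replicates 1, 2 and 3. Every USAG1_OE library was above every control library, and the gap between the groups was wider than the range within either. The mean rose from 48.8 ± 3.92 to 67.0 ± 2.16 CPM (n = 3 libraries each, ± SD), and the log2 fold change was 0.46 (SE 0.07, 95% interval 0.29 to 0.63; adjusted p = 0.00537, edgeR). IDH1 stayed past the threshold in all 17 alternative analyses, with log2 fold changes of 0.42 to 0.53. Its change was not rare in size for this comparison, since 23.8% of all genes tested changed by at least as much in either direction, while 4.05% had a p-value as small or smaller. The antisense gene IDH1-AS1, which lies within the gene on the other strand, had 0 counts in all 6 libraries.

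ME1 (ENSG00000065833; chromosome 6, 83210402 to 83431051, minus strand) encodes the cytosolic malic enzyme, which makes NADPH as it turns malate into pyruvate. It stood at 61.1, 60.1 and 62.0 CPM in the control libraries and 74.6, 80.9 and 76.3 CPM in the USAG1_OE libraries. The control libraries lay close together, replicate 3 included, and all 3 USAG1_OE libraries were above them. The mean rose from 61.1 ± 0.929 to 77.3 ± 3.29 CPM (n = 3 libraries each, ± SD), with a log2 fold change of 0.34 (SE 0.06, 95% interval 0.20 to 0.47; adjusted p = 0.00749, edgeR). ME1 covers 220.65 kb of genome, more than 94.5% of genes tested, and among the 500 genes nearest to it in span the median log2 fold change was 0.11 and 20% were called higher. With a fit that removed the trend with genomic span, its log2 fold change was 0.22 and the call was lost (adjusted p = 0.0554, edgeR). IDH1 covers 29.846 kb, and the corresponding median for its 500 neighbours in span was 0.01, with 9% called higher. ENSG00000219951, which lies within ME1 on the other strand, had 0 to 4 counts a library.

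**Figure D2:**
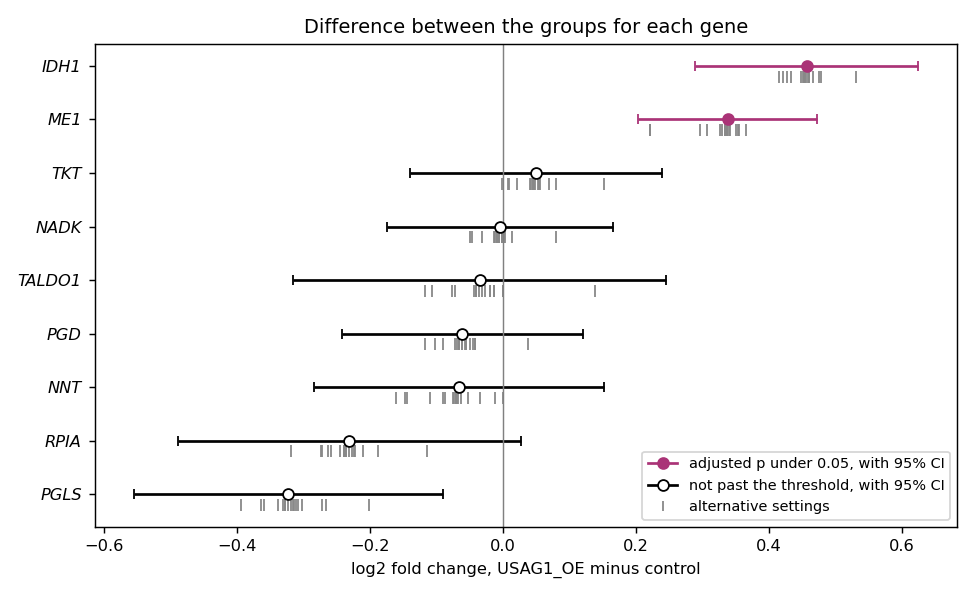
Log2 fold change of each enzyme, USAG1_OE minus control, with 95% intervals from the edgeR fit and grey ticks for the alternative analyses. Filled points mark adjusted p under 0.05; the intervals of IDH1 (0.29 to 0.63) and ME1 (0.20 to 0.47) lie wholly above 0, and that of PGLS (-0.56 to -0.09) lies wholly below 0 without passing the adjusted threshold.

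In the oxidative branch, PGLS (ENSG00000130313; chromosome 19, 17511636 to 17521043, plus strand) encodes 6-phosphogluconolactonase, which opens the lactone of phosphogluconate. Its level was 27.4, 26.0 and 33.3 CPM in the control libraries and 22.9, 22.7 and 23.7 CPM in the USAG1_OE libraries. The groups did not overlap, and the USAG1_OE libraries were the lower and the closer together. The means were 28.9 ± 3.89 and 23.1 ± 0.506 CPM (SD, n = 3 each), with a log2 fold change of -0.32 (SE 0.10, 95% interval -0.56 to -0.09; adjusted p = 0.0671, edgeR). It passed the threshold with upper-quartile scaling (adjusted p = 0.0443, edgeR) and with DESeq2 (adjusted p = 0.0334), and adjusted p-values over all alternatives ran up to 0.207. Without control replicate 3, the highest library, its log2 fold change was -0.20. Of the genes that overlap PGLS on the other strand, PGLS-DT had 16 to 22 counts a library and ENSG00000269161 had 0 to 1.

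PGD (ENSG00000142657; chromosome 1, 10398592 to 10419808, plus strand) encodes 6-phosphogluconate dehydrogenase, the enzyme of the step after PGLS and one of the pair in the pathway that release NADPH. It was at 274, 263 and 321 CPM in the control libraries and 268, 276 and 279 CPM in the USAG1_OE libraries. The USAG1_OE libraries lay inside the control range, and control replicate 3 was the highest of all 6. The log2 fold change was -0.06 (SE 0.08, 95% interval -0.24 to 0.12; adjusted p = 0.658, edgeR), and 0.04 without control replicate 3. The interval did not reach a change of the size seen for IDH1. The pseudogene PGDP1 on another chromosome had 0 to 4 counts a library.

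In the non-oxidative branch, RPIA (ENSG00000153574; chromosome 2, 88691673 to 88750929, plus strand) encodes ribose-5-phosphate isomerase, which makes the ribose phosphate of nucleotides. It stood at 18.5, 20.9 and 24.5 CPM in the control libraries and 18.9, 17.1 and 18.4 CPM in the USAG1_OE libraries. The groups overlapped by a single pair, USAG1_OE replicate 1 being just above control replicate 1. Its log2 fold change was -0.23 (SE 0.11, 95% interval -0.49 to 0.03; adjusted p = 0.210, edgeR).

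TKT (ENSG00000163931; chromosome 3, 53224712 to 53256022, minus strand) encodes transketolase, which moves carbon units between the sugars of the branch. It was at 655, 646 and 786 CPM in the control libraries and 692, 752 and 718 CPM in the USAG1_OE libraries. The USAG1_OE libraries were above control replicates 1 and 2 and below control replicate 3. With all libraries the log2 fold change was 0.05 (SE 0.08, 95% interval -0.14 to 0.24; adjusted p = 0.734, edgeR). Without control replicate 3 it was 0.15 and passed the threshold (adjusted p = 0.0153, edgeR), in a fit that called 15.8% of the genes it tested higher.

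TALDO1 (ENSG00000177156; chromosome 11, 747415 to 765012, plus strand) encodes transaldolase, the other transferase of the branch. Its level was 123, 122 and 168 CPM in the control libraries and 128, 142 and 133 CPM in the USAG1_OE libraries. The groups were arranged as for TKT: control replicate 3 above all 3 USAG1_OE libraries, and those above the other controls. The log2 fold change was -0.03 (SE 0.12, 95% interval -0.32 to 0.25; adjusted p = 0.883, edgeR) with all libraries and 0.14 without control replicate 3 (adjusted p = 0.0630, edgeR).

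NNT (ENSG00000112992; chromosome 5, 43602692 to 43707405, plus strand) encodes the transhydrogenase of the inner mitochondrial membrane, which passes electrons from NADH to NADP+. It stood at 35.8, 39.8 and 35.7 CPM in the control libraries and 34.0, 40.1 and 32.3 CPM in the USAG1_OE libraries. The groups overlapped, with the libraries numbered 2 the highest of each, and NNT was the only one of the 9 enzymes for which control replicate 3 was not the highest control. Its log2 fold change was -0.07 (SE 0.10, 95% interval -0.28 to 0.15; adjusted p = 0.691, edgeR).

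RPL29P12, which lies within NNT on the other strand, had 0 to 7 counts a library. The antisense gene NNT-AS1 shares 539 bases with the start of NNT on the other strand. Counts of NNT-AS1 were 265, 360 and 269 in control replicates 1 to 3 against 400, 416 and 376 in USAG1_OE replicates 1 to 3, with no overlap between the groups. Its mean rose from 6.65 ± 0.559 to 8.98 ± 0.470 CPM (SD, n = 3 each; log2 fold change 0.43, SE 0.12; adjusted p = 0.0493, edgeR), close to the threshold, and its call was lost in 13 of 17 alternatives, among them without any 1 library. The library protocol kept strand, but the strand setting of the counting was not given in the sources used here, so reads from the shared bases cannot be told apart.

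NADK (ENSG00000008130; chromosome 1, 1751232 to 1778790, minus strand) encodes the cytosolic NAD kinase. Its level was 83.5, 81.5 and 96.1 CPM in the control libraries and 86.2, 88.0 and 86.2 CPM in the USAG1_OE libraries. As with TKT and TALDO1, all USAG1_OE libraries lay between control replicate 3 and the other controls. The means were 87.0 ± 7.93 and 86.8 ± 1.06 CPM (SD, n = 3 each), and the 95% interval of the log2 fold change, -0.17 to 0.17, did not reach the change seen for IDH1 (adjusted p = 0.977, edgeR).

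The weight of control replicate 3 was seen across the set. It was the highest control library for 8 of the 9 enzymes, whereas it was the highest for 40.3% and the lowest for 41.6% of all genes tested. Its difference from the mean of the other controls on the log2 CPM scale was 0.45 for TALDO1, 0.32 for PGLS, 0.31 for RPIA, 0.27 for TKT, 0.26 for PGD, 0.22 for NADK and 0.20 for IDH1, against 0.03 for ME1 and -0.08 for NNT. Over the 9 enzymes the root mean square difference of a library from the mean of the others of its group was 0.27 for control replicate 3 and 0.07 to 0.15 for the other 5, and over all genes tested it was 0.64 against 0.52 to 0.55. The summed level of the 9 enzymes was 1324.95, 1306.62 and 1580.45 CPM in the control libraries and 1389.74, 1487.17 and 1433.9 CPM in the USAG1_OE libraries. The USAG1_OE sums lay above the first pair of controls and below control replicate 3. Without that library 3 of the 9 enzymes (IDH1, ME1 and TKT) were called higher and 0 lower, in a fit that called 27% of all genes it tested in either direction.

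**Figure D3:**
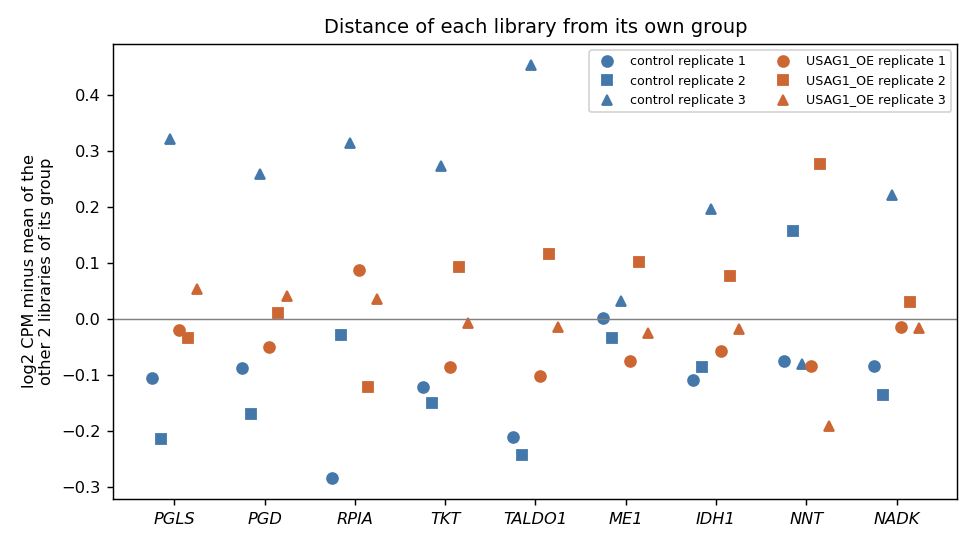
Difference of each library from the mean of the other 2 libraries of its group, on the log2 CPM scale (y axis), for each of the 9 enzymes (x axis), with colours for the groups and marker shapes for the replicates. Control replicate 3 (blue triangles) lies above the other controls for 8 of the 9 enzymes, by 0.45 for TALDO1, and below their mean for NNT (-0.08).

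Other enzymes of the pentose phosphate pathway were described from a list of 11, of which 9 were tested, with a median log2 fold change of -0.05. In this list 0 were called higher and 1 lower, against 8.95% and 6.91% of all genes tested. The gene that fell was H6PD, which carries out the first steps of the oxidative branch in the lumen of the endoplasmic reticulum and makes NADPH there. Its level was 44.0, 46.0 and 47.2 CPM in the control libraries and 30.1, 31.8 and 33.6 CPM in the USAG1_OE libraries, with no overlap. The log2 fold change was -0.52 (SE 0.07; adjusted p = 0.00243, edgeR), and H6PD kept its call in all 17 alternative analyses. The gene with the next smallest p-value was DERA, which cleaves deoxyribose phosphate, at a log2 fold change of -0.11 (adjusted p = 0.409, edgeR).

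Among 10 genes listed as other sources of NADPH, 9 were tested, with a median log2 fold change of 0.01. Of these, 0 were called higher and 2 lower, against 8.95% and 6.91% of all genes tested. This count rested on control replicate 3: without it 6 of the 9 were called, counting either direction. That fit called 27% of all genes it tested. IDH2, the mitochondrial counterpart of IDH1, stood at 97.5, 106 and 121 CPM in the control libraries and 84.2, 87.0 and 86.6 CPM in the USAG1_OE libraries. It was lower in all 3 USAG1_OE libraries, the opposite of IDH1, with a log2 fold change of -0.33 (SE 0.08; adjusted p = 0.0303, edgeR). Without control replicate 3, its highest library, the log2 fold change shrank to -0.24. The call for IDH2 was lost in 5 of 17 alternatives, among them without control replicate 2 and without any 1 of the 3 USAG1_OE libraries, with adjusted p-values of up to 0.122. MTHFD2L, a mitochondrial enzyme of folate metabolism, fell by 0.68 on the log2 scale (SE 0.16; adjusted p = 0.0256, edgeR), from a low level of 7.00 ± 0.942 CPM, and lost its call in 6 of 17 alternatives, among them without any 1 library other than control replicate 3. The mitochondrial malic enzymes ME2 and ME3, like NADK2 named after their values were seen as partners of ME1 and NADK, had log2 fold changes of -0.03 (adjusted p = 0.834, edgeR) and -0.23 (adjusted p = 0.0832, edgeR), and NADK2, the mitochondrial NAD kinase, one of 0.04 (adjusted p = 0.809, edgeR).

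Pairs of related enzymes in different compartments were set side by side as ratios of counts within a library, which do not depend on the scaling between libraries. These pairs were chosen after their values were seen and the ratios are a description with no test. Since the lengths of the transcripts differ, a ratio is read between libraries and not as the share of either enzyme. The ratio of IDH1 to IDH2 was 0.474, 0.441 and 0.441 in the control libraries and 0.774, 0.797 and 0.766 in the USAG1_OE libraries. Control replicate 3 did not stand apart in this ratio, and the group means were 0.452 ± 0.0189 and 0.779 ± 0.0160 (SD, n = 3 each). The ratio of cytosolic ME1 to mitochondrial ME3 went from 1.80 ± 0.174 to 2.67 ± 0.196, and that of ME1 to ME2 from 1.03 ± 0.0957 to 1.33 ± 0.0753. Control replicate 3 was the highest control in both, at 2.00 and 1.14, and the ratios were not adjusted for the trend with genomic span. The ratio of cytosolic PGD to H6PD went from 6.25 ± 0.539 to 8.63 ± 0.290, set by the lower H6PD counts. For these 4 pairs all USAG1_OE libraries lay above all control libraries, whereas the ratio of NADK to NADK2 overlapped, at 4.57 ± 0.657 and 4.42 ± 0.357.

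**Figure D4:**
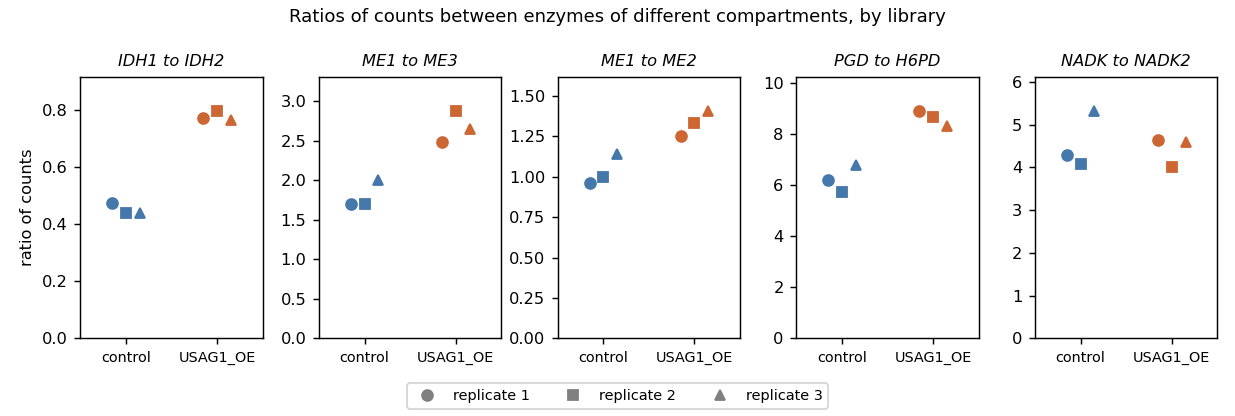
Ratio of the counts of a cytosolic enzyme to those of a partner in mitochondria or the endoplasmic reticulum, for each control and USAG1_OE library (points, shaped by replicate number), on axes that start at 0. The USAG1_OE libraries lie above the control libraries for IDH1 to IDH2 (means 0.452 and 0.779), ME1 to ME3, ME1 to ME2 and PGD to H6PD, and overlap with them for NADK to NADK2.

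The enzymes that supply NAD or break NADP down gave 1 gene higher and 1 lower among 10 tested, against 15.9% called in either direction over all genes. Their median log2 fold change was 0.00. NADSYN1, which completes NAD from its acid precursor, fell by 0.39 on the log2 scale (adjusted p = 0.0279, edgeR). NOCT, which removes a phosphate from NADP(H), rose by 0.56 (adjusted p = 0.0343, edgeR), with control replicate 3 at 33.1 CPM between the other controls, at 22.0 and 24.0 CPM, and the USAG1_OE libraries, at 36.6 to 41.6 CPM. NOCT lost its call without any 1 library other than control replicate 3 and without the low-count filter (6 of 17 alternatives). NADSYN1 lost its call without control replicate 2, without USAG1_OE replicate 1 or 2 and without the low-count filter (4 of 17 alternatives).

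Of the enzymes that spend NADPH, 23 of 24 listed were tested, with 4 called higher, 1 lower and a median log2 fold change of 0.00; the groups did not overlap for 10 of them, against 37.6% not overlapping and 15.9% called over all genes tested. FASN, the fatty acid synthase, rose from 510.1 ± 4.65 to 712 ± 30.9 CPM (log2 fold change 0.48, SE 0.05; adjusted p = 0.00123, edgeR). GSR, which reduces glutathione disulfide with NADPH, rose from 85.6 ± 8.73 to 124 ± 0.968 CPM (log2 fold change 0.53, SE 0.08; adjusted p = 0.00383, edgeR). POR, which feeds electrons to cytochromes P450, had a log2 fold change of 0.46 (SE 0.07; adjusted p = 0.00423, edgeR), and AIFM2, also named FSP1, which keeps ubiquinone reduced at the plasma membrane and restrains ferroptosis, one of 0.58 (SE 0.09; adjusted p = 0.00458, edgeR). These 4 kept their calls in all 17 alternative analyses. The gene that fell was AKR1A1, an aldehyde reductase, by 0.38 on the log2 scale (adjusted p = 0.0442, edgeR), and its call was lost in 6 of 17 alternatives, among them without any 1 library other than control replicates 1 and 3.

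The list for substrate supply had 15 genes tested, not all of which bring substrate to the 9 enzymes. Of these 15, 2 were called higher and 1 lower, against 15.9% called in either direction over all genes. Their median log2 fold change was 0.07. The genes that rose were PGM1, an enzyme of glycogen metabolism that makes hexose phosphate (log2 fold change 0.34; adjusted p = 0.0118, edgeR), and the hexokinase HK1 (0.33; adjusted p = 0.0118, edgeR). The gene that fell was the hexokinase HK2, the gene and not the cell line (-0.23; adjusted p = 0.0496, edgeR). Each of these 3 lost its call in 5 to 10 of 17 alternatives, and without control replicate 2 the list had 0 calls. Without control replicate 3 it had 10, in a fit that called 27% of all genes it tested. HK1 lost its call once the trend with genomic span was removed.

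Of 10 transcription factors and other regulators tied to these enzymes, 4 were called higher and 0 lower, against 8.95% and 6.91% of all genes tested. Their median log2 fold change was 0.21, and the number called ran from 1 to 7 over the alternatives. BACH1, a repressor that competes with NRF2 at shared sites, rose from 35.8 ± 1.39 to 53.4 ± 1.63 CPM (log2 fold change 0.57, SE 0.06; adjusted p = 0.00120, edgeR) and kept its call in all 17 alternatives. NFE2L2, which encodes NRF2, an activator known to drive several enzymes of the set, had a log2 fold change of 0.30 (adjusted p = 0.0367, edgeR), and lost its call in 9 alternatives, among them without control replicate 1, without any 1 of the USAG1_OE libraries and with the span trend removed. MAFF, a small MAF partner of both factors, had a log2 fold change of 0.56 (adjusted p = 0.0117, edgeR), with the call lost without USAG1_OE replicate 2 or 3. SREBF1, an activator of lipid synthesis genes, had one of 0.26 (adjusted p = 0.0275, edgeR), with the call lost in 7 of 17 alternatives, among them without any 1 library other than control replicate 3.

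**Figure D5:**
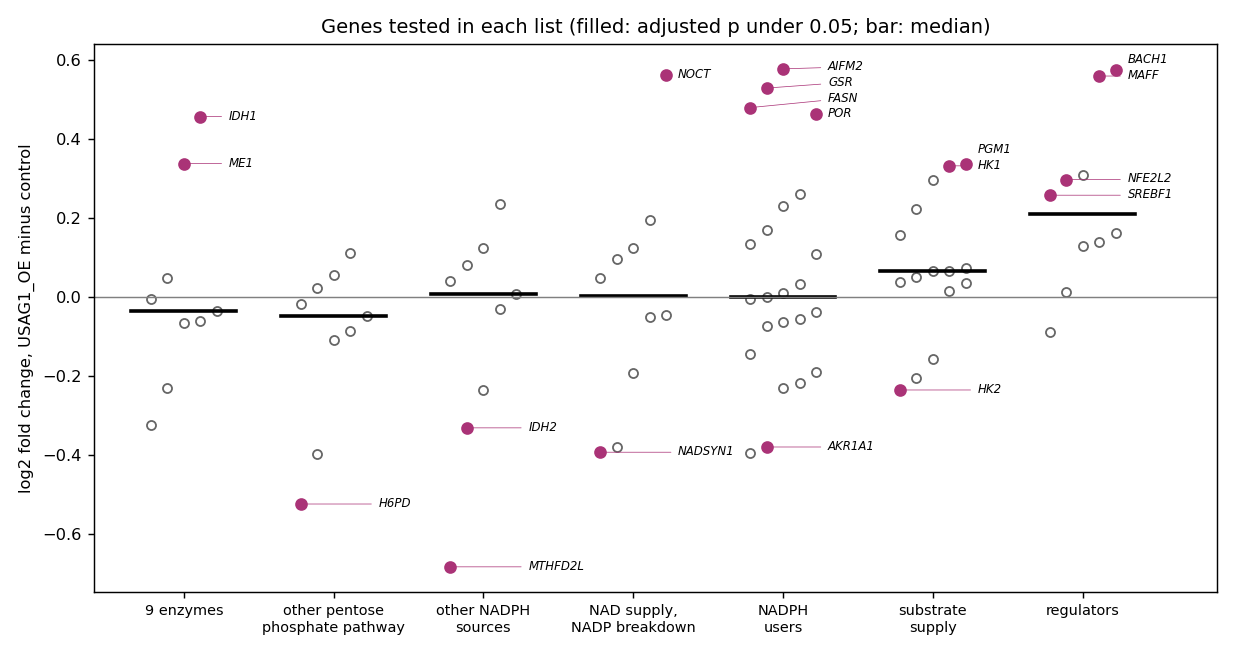
Log2 fold change, USAG1_OE minus control, of each gene tested in the 9 enzymes and in the 6 lists around them, with filled points for adjusted p under 0.05 in the edgeR fit and a bar at the median of each list. In the 9 enzymes the called genes IDH1 and ME1 lie above 0, and in the other pentose phosphate genes and other NADPH sources the called genes H6PD, IDH2 and MTHFD2L lie below 0.

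Genes whose levels followed those of IDH1 most closely over the 6 libraries were SLC4A2, an anion exchanger, SF1, a splicing factor, and FOXP4, a forkhead transcription factor. Pearson's r of log2 CPM with IDH1 was 0.999 for each, over 6 libraries that share the difference between the groups. Such values were common, since 656 of the 11092 genes compared had an r over 0.95. SLC4A2 and SF1 rose by less than IDH1, with log2 fold changes of 0.32 and 0.33, and FOXP4 by 0.49.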

How the data were processed

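RNA of HK2 cells (3 control and 3 USAG1_OE libraries) was purified on oligo(dT) beads and sequenced as strand-specific paired reads, per the labels, although the series' design text names rRNA removal. The authors deposited 1 table per gene with human Ensembl identifiers and coordinates; it is named for FPKM, but each column header reads count and all values are whole, with unequal totals, so the deposited values were taken as raw counts. The submitters' processing notes name cutadapt 1.9, FastQC and hg38; aligner and counter are not given in the sources used here. Samples were grouped by their titles, and columns were matched by the labels' column names. Nothing in the labels says that the libraries came from separate cultures, so p-values measure the spread between these samples, which may be technical.

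Genes were filtered with filterByExpr and scaled by TMM, and a quasi-likelihood F test was fitted to all 18188 genes kept (edgeR 4.0.16, R 4.3.3), with Benjamini-Hochberg adjustment and a call at adjusted p under 0.05. SEs were obtained from the log2 fold change and the square root of F, with intervals at 95%. At these totals 3 counts correspond to 0.0608 to 0.0719 CPM, and that floor covers counting error only. Named genes were the 9 enzymes, every gene of the other lists past the threshold or among its 2 smallest p-values, genes overlapping an enzyme or named as its copy, and the 3 genes most like the enzyme of smallest p. ME2, ME3 and NADK2 were named after their values were seen. The enzymes and lists were chosen with earlier results of these data known. Alternatives were RLE, upper-quartile or no scaling factors, scaling without mitochondrial genes and SOSTDC1, DESeq2 1.42.0, limma-voom (limma 3.58.1), no or a stricter low-count filter (10 counts in every library), a replicate block, an offset for genomic span, each library left out and a threshold of 0.01. Protein and promoter sequences of these human genes were not used here. NOX4, SLC22A6 and SLC22A8 were not analysed here. Some genes of the other lists are not reported here and were left out of the lists' counts.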

Additional observations from a re-analysis of the deposited data

How the results depend on the processing

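Of 153 comparisons of an enzyme's log2 fold change between an alternative and the fit reported, 139 kept direction and side of the threshold. With an offset for genomic span, 1 of the 9 enzymes was called higher (IDH1) in place of 2, and also 1 with that offset and the replicate block. With upper-quartile scaling and with DESeq2, 1 was called lower (PGLS) in place of 0. With 1 library left out at a time, 2 to 3 were called higher and 0 lower. Signs turned for enzymes close to 0 or resting on control replicate 3: over the fits without 1 library the log2 fold change ran from -0.12 to 0.0375 for PGD, -0.00104 to 0.15 for TKT, -0.12 to 0.14 for TALDO1 and -0.0499 to 0.0796 for NADK, and NADK was at 0.0144 with library sizes alone and at 0.000620 with limma-voom. The count over all genes, 2884, was 1104 at a threshold of 0.01 and 1137 (without USAG1_OE replicate 2) to 5091 (without control replicate 3) with 1 library left out. Counts of called genes over all alternatives ran from 1 to 2 for the other pentose phosphate genes (1 in the fit reported). They ran from 0 to 6 for other NADPH sources (2), 0 to 2 for NAD supply (2) and 4 to 9 for NADPH users (5). The counts of 6 and 9 came without control replicate 3. For substrate supply they ran from 0 to 10 (3) and for regulators from 1 to 7 (4), both highest without control replicate 3. Marker counts ran from 0 to 2 for myeloid (1), 2 to 4 for kidney tubule (4) and 0 to 3 for general epithelial genes (0). The causes of these changes were not tested.

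Control and USAG1_OE libraries share the numbers 1 to 3, but deviations from the group means correlated at 0.07, -0.05 and 0.04 over genes for same-numbered libraries, and not every library correlated best with its own number, so the numbers were not taken as pairs. With the replicate block 2 enzymes were still called higher, IDH1 (0.46, adjusted p = 0.0131, edgeR) and ME1 (0.34, adjusted p = 0.0213, edgeR), 0 lower, and 2381 genes in all. Of the other named genes, NNT-AS1, MTHFD2L, HK2 and SREBF1 were not called with the block (adjusted p = 0.0712, 0.0580, 0.0634 and 0.0526, edgeR). With 3 libraries a group, changes as small as those of PGLS, RPIA and TALDO1 lay within intervals that also hold values near those of called genes, so a missed threshold does not show that levels were equal.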
